A study of Danio rerio with 2 samples.

Results

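The collagen makeup of adult zebrafish jaw joint cells was described for the collagen genes outside the cartilage and type X set. Members were all rows of the gene list whose symbol begins with col, a number, the letter a and a further number, leaving out the 11 rows of types II, IX, XI and X. The pattern matched 58 rows, so 47 of the 36355 rows were members. These carry 46 symbols, because *col27a1a* has 2 rows. A further pair of symbols, *col4a3bpa* and *col4a3bpb*, encode a ceramide transfer protein and no collagen, which leaves 45 collagen rows. Members were chosen by symbol and not by their values.

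Collagens are trimers of 3 chains that share a long stretch of glycine repeats. The fibril-forming types I and V build the banded fibrils of bone, ligament and skin, with type V setting where fibrils start and how wide they grow. The FACIT collagens (XII, XIV, XVI, XXI) sit on the surface of fibrils, type VI forms beaded filaments around cells, and type VIII forms a short-chain network. Type IV with the multiplexins XV and XVIII belongs to basement membranes, type VII anchors them to the dermis, and type XVII is a transmembrane collagen of hemidesmosomes. Because of the genome duplication in teleosts, many chains are encoded by a pair of genes marked a and b.

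The cells came from 50 pooled, micro-dissected jaw joints of 3-month-old fish that carried both the *sox10:DsRed* and the *trps1:eGFP* transgene. Live DsRed-positive cells, with or without GFP, gave the *sox10:DsRed*-enriched library, and GFP-positive cells gave the *trps1:eGFP*-enriched library. The sources differ on whether DsRed was also required in this second gate, and the labels, which name GFP alone, were followed. The *sox10* promoter labels a part of the chondrocytes and *trps1:GFP* labels mesenchymal cells and articular chondrocytes, so each sort holds a chosen share of the joint. As each sort of pooled fish gave a single library, differences have no replicate check and carry no p-value, and all intervals are exact 95% intervals that cover counting error only.

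The libraries held 1073482 UMIs in 462 barcodes (*sox10:DsRed*) and 17424489 UMIs in 4876 barcodes (*trps1:eGFP*), where a UMI stands for 1 captured transcript. After filtering, 242 and 3919 cells remained, with medians of 2588 and 3648 UMIs per cell. The libraries shared 16 barcodes, 2 of them among the kept cells. Cells were grouped into 17 classes with all collagens left out of the features that drove the clustering. Genes that vary with the collagens remained among those features, so the levels by class are descriptions. Of the 17 classes, 10 took a "like" name from markers other than collagens. They comprise *ihha* chondrocyte-like (89 cells), *ucmab* chondrocyte-like (70), superficial chondrocyte-like (117), osteoblast-like (184), pre-osteoblast-like (59), ligamentocyte-like (376), dermal fibroblast-like (302), glia-like (46), epithelial-like (366) and endothelial-like cells (25). The other 7 connective tissue clusters are called by a leading gene, namely *glis1b* (1031 cells), *hspb1* (683), *pck1* (249), *fgl1* (216), *ctslb* (147), *coch* (109) and *ccl19a.1* (92). The 5 dermal fibroblast markers sum to 11946 CPM (UMIs per 1000000) in the unnamed *pck1* cluster and to 11169 CPM in the dermal fibroblast-like class. The paper describes several dermal fibroblast populations, so this class need not hold all such cells. Other lists cross the names too. The 7 osteoblast markers sum to 51805 CPM in pre-osteoblast-like and 41707 CPM in osteoblast-like cells. The 4 superficial chondrocyte markers sum to 4565 CPM in the *coch* cluster and 4280 CPM in superficial chondrocyte-like cells. Only 2 of the 4 had any UMI in the *coch* cluster, against 3 in superficial chondrocyte-like cells, so similar sums need not mean the same markers. The classes are nearly split by sort. The *ucmab* cells all came from the *sox10:DsRed*-enriched library, as did 86 of the 89 *ihha* cells and 43 of the 46 glia-like cells. Only the osteoblast-like and pre-osteoblast-like classes had at least 10 cells of each library. Of the 7 endothelial markers, *cdh5* and *plvapa* were at 0 in the endothelial-like cells, while *tie1* was in 72.0% of them.

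Osteoblast-like cells gave by far the greatest part of their RNA to these collagens, followed by ligamentocyte-like and dermal fibroblast-like cells. Collagen transcripts made up 8.52% of the UMIs of osteoblast-like cells (95% interval 8.47% to 8.57%), 3.96% of ligamentocyte-like cells (3.93% to 3.99%) and 2.91% of dermal fibroblast-like cells (2.88% to 2.94%). The *ccl19a.1* (1.64%), *fgl1* (1.47%), pre-osteoblast-like (1.37%) and *hspb1* (1.05%) classes came next. The remaining connective tissue clusters lay between 0.508% (*glis1b*) and 0.700% (*pck1*), near the epithelial-like cells at 0.582%. The lowest shares were those of the *ihha* (0.259%), *ucmab* (0.152%), endothelial-like (0.147%) and glia-like (0.088%) cells. With 20 dimensions the glia-like share was 0.487%, above those of the other 3, so its place as the lowest is not stable. The intervals of the *ucmab* and endothelial-like classes overlap (0.136% to 0.170% against 0.124% to 0.173%), so these neighbours in the order do not differ beyond counting error. Over all kept cells, the 45 collagen rows took 1.77% of the UMIs.

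Single cells of a class differed widely. The median osteoblast-like cell had 6.90% collagen, the interquartile range ran from 3.63% to 10.4%, and the highest cell reached 35.6%. Pre-osteoblast-like cells had a median of 0.607%, with an interquartile range of 0.269% to 1.81%. In the superficial chondrocyte-like class, the summed share of 0.976% stood above its upper quartile of 0.803%, since a few cells were rich in collagen and the highest held 15.5%. That class had a share of 0.511% to 1.02% under other clustering settings. The *ctslb* class showed the same form, with a summed share of 0.654% over a median cell of 0.319%. The 3 *trps1:eGFP* cells of the *ihha* class also mattered: without them its share was 0.218%. Cell depth followed the shares in part. Median UMIs were 5306 per osteoblast-like, 2731 per *ucmab* and 1440 per glia-like cell, but the deepest class, epithelial-like (5912), had a share of 0.582%, and dermal fibroblast-like (4369) and pre-osteoblast-like cells (4946) were deeper than ligamentocyte-like cells (3513). The part of depth in the shares was not tested.

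**Figure D1:**
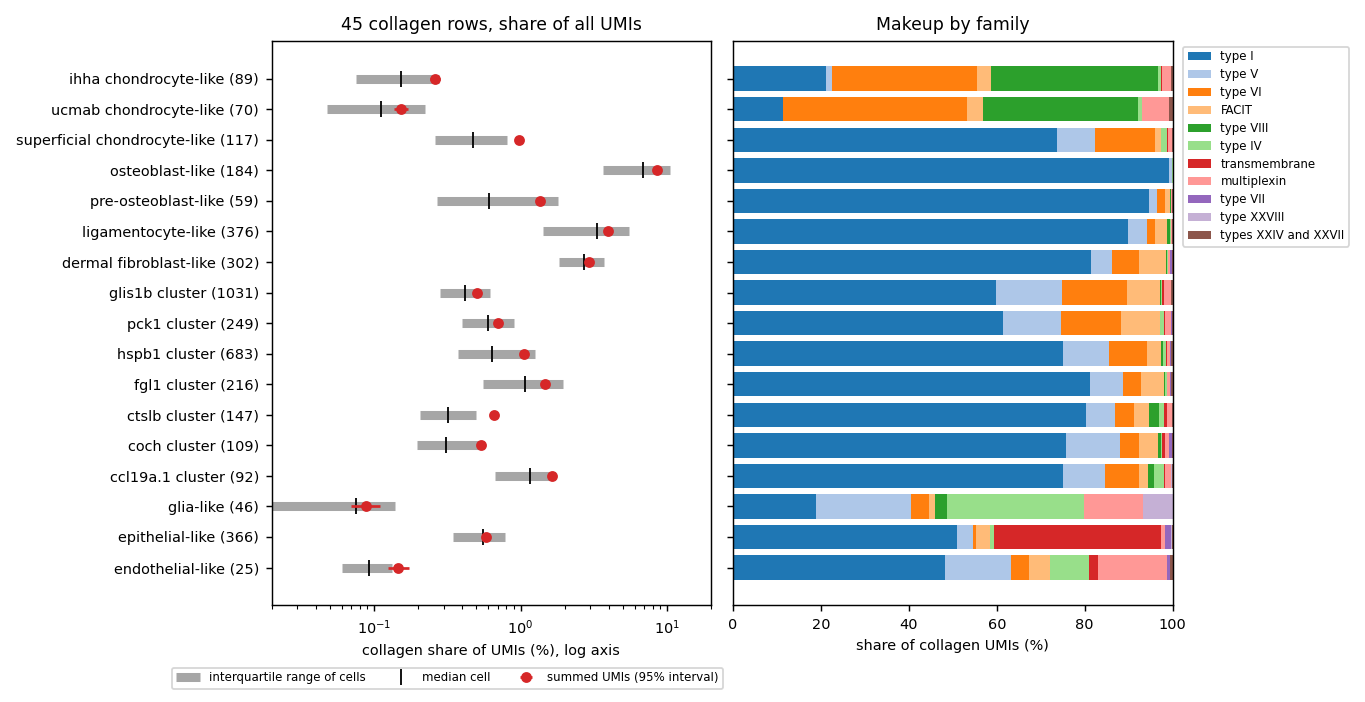
Left, share of all UMIs on the 45 collagen rows by cell class (percent, log axis), as summed UMIs with the exact 95% interval (red), the median cell (black tick) and the interquartile range of single cells (grey). Right, share of those collagen UMIs by family (percent, bars sum to 100). Type I fills 99.1% of the osteoblast-like bar and 11.3% of the *ucmab* bar, and the red points run from 0.088% to 8.52%.

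Type I made up 85.3% of the UMIs on the 45 collagen rows, and its share sets the classes apart. It was 99.1% of these UMIs in osteoblast-like, 94.6% in pre-osteoblast-like, 89.9% in ligamentocyte-like and 81.5% in dermal fibroblast-like cells. It was 59.9% in the *glis1b* and 61.4% in the *pck1* cluster, where types V and VI took 13% to 15% each (14.9% and 14.9% in *glis1b*, 13.3% and 13.7% in *pck1*). In the *ihha* and *ucmab* chondrocyte-like cells it was 21.1% and 11.3%, and type VI (33.1% and 41.9%) with type VIII (38.2% and 35.3%) led. In the *sox10:DsRed* cells of the *ihha* class alone, type I was 15.5%, type VI 36.6% and type VIII 40.7%. Types II, IX, XI and X are in none of these shares. They took 4.41% of all UMIs in osteoblast-like, 1.55% in pre-osteoblast-like, 1.49% in *ihha* and 1.31% in *ucmab* cells. The 45 collagen rows took 8.52%, 1.37%, 0.259% and 0.152% there. In the other classes the types left out took 0.011% (endothelial-like) to 0.088% (ligamentocyte-like).

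The chains of type I are encoded by the paired genes *col1a1a* and *col1a1b* and by *col1a2*. Levels are given as CPM, the UMIs of a gene per 1000000 UMIs of the class. The 3′ kit tags each transcript at its end, so these values are not divided by gene length, and differences in the annotated 3′ ends can still bear on a comparison of genes. In osteoblast-like cells, *col1a1a* stood at 24059, *col1a1b* at 19340 and *col1a2* at 41063 CPM. Ligamentocyte-like cells had 9943, 7976 and 17681 CPM, and dermal fibroblast-like cells 5808, 6640 and 11245 CPM. All 3 chains therefore kept the same order of these 3 classes. The *col1a2* level was 6617 CPM in pre-osteoblast-like, 3620 in superficial chondrocyte-like, 1437 in *glis1b*, 351 in *ihha* and 109 in *ucmab* cells.

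Type I was also read at a low level in cells that are not known as its source. In endothelial-like cells *col1a2* was at 270 CPM and in 36.0% of cells, at a median of 3490 UMIs per cell. In glia-like cells it was at 71.3 CPM and in 13.0% of cells, at a median of 1440 UMIs. These levels are used below as a reference for the *trps1:eGFP* and the *sox10:DsRed* library. Whether they come from RNA that is free in the droplets was not tested. The glia-like level rests on few counts, with 5 *col1a2* UMIs in the 43 cells of the *sox10:DsRed* library. The *ucmab* level of 109 CPM (24.3% of cells, median 2731 UMIs) lies within the counting interval of the glia-like level (26.2 to 155 CPM), so *col1a2* in *ucmab* cells could not be told from that reference at this depth. In *ihha* cells of the *sox10:DsRed* library, *col1a2* was at 233 CPM (175 to 303). In epithelial-like cells *col1a1a*, *col1a1b* and *col1a2* were at 684, 898 and 1391 CPM, above the endothelial-like levels of 190, 250 and 270 CPM. The 5 dermal fibroblast markers sum to 8938 CPM in epithelial-like and 11169 CPM in dermal fibroblast-like cells. Nearly all of the first sum is *ptgdsb.1* (8619 CPM), whereas *pah*, *mamdc2b* and *fmoda* were at 30.6, 5.09 and 1.85 CPM there. The part of fibroblast RNA in the epithelial-like type I level was not tested.

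The balance of *col1a1a* and *col1a1b* differed between classes more than the share of *col1a2*. *col1a2* was 48.6% of type I UMIs in osteoblast-like (48.3% to 48.9%), 49.7% in ligamentocyte-like and 47.5% in dermal fibroblast-like cells. It ranged from 46.8% (epithelial-like) to 53.0% (*coch*) over the 13 classes with at least 1000 type I UMIs. The ratio of *col1a1a* to *col1a1b* was 1.24 in osteoblast-like (1.22 to 1.27) and 1.25 in ligamentocyte-like cells (1.22 to 1.28). It was 0.875 in dermal fibroblast-like (0.848 to 0.902), 0.796 in pre-osteoblast-like (0.732 to 0.866), 0.762 in epithelial-like (0.712 to 0.816) and 0.731 in *glis1b* cells (0.694 to 0.769). At a resolution of 1.2 the log2 of the ligamentocyte-like ratio moved from 0.32 to 0.08, as 78 cells with a ratio of 1.78 then formed a cluster of their own. So *col1a1a* exceeded *col1a1b* in the osteoblast-like and ligamentocyte-like classes, in the second mainly through those cells, and *col1a1b* exceeded *col1a1a* in the dermal fibroblast-like, pre-osteoblast-like, epithelial-like, *glis1b*, *pck1*, *hspb1* and *fgl1* classes. The intervals of the *ctslb*, *coch* and *ccl19a.1* classes include 1. In the superficial chondrocyte-like class the ratio was 0.867 (0.781 to 0.963), and its log2 of -0.21 turned to 0.06 with a minimum of 200 genes per cell. Near-identical stretches of paired genes can share reads, and how much this bears on the ratios is unknown.

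**Figure D2:**
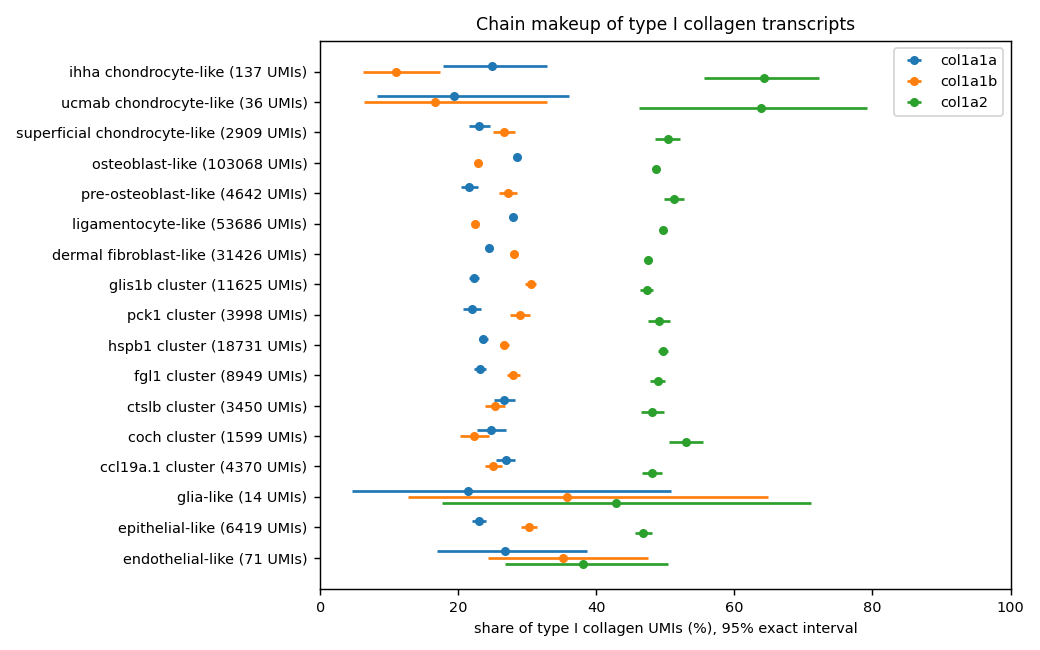
Share of type I collagen UMIs (percent, horizontal axis from 0 to 100) from *col1a1a*, *col1a1b* and *col1a2* in each cell class, with exact 95% intervals and the number of type I UMIs beside each class name. The blue points lie right of the orange points in the osteoblast-like and ligamentocyte-like rows and left of them in the dermal fibroblast-like and *glis1b* rows, and the wide intervals belong to classes of 14 to 137 UMIs.

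Type V, the partner of type I in fibrils, was read in all classes that held type I at over 1000 UMIs, but its α2 gene in osteoblast-like cells was another one. *col5a1*, the α1 chain, was highest in ligamentocyte-like cells at 1018 CPM (968 to 1070), then 854 in *ccl19a.1*, 782 in dermal fibroblast-like, 689 in *hspb1* and 647 in *fgl1* cells. It was lower in osteoblast-like (163) and pre-osteoblast-like cells (117), at 0 UMIs in *ucmab* cells (which allows up to 14.3 CPM) and at 170 CPM in the endothelial-like reference. The osteoblast-like and pre-osteoblast-like levels of *col5a1* were thus not above that reference. *col5a2a* followed a similar order, with 670 CPM in *ccl19a.1*, 666 in ligamentocyte-like, 541 in dermal fibroblast-like, 83.4 in pre-osteoblast-like and 21.3 in osteoblast-like cells. *col5a2b* showed the opposite. It was at 363 CPM in osteoblast-like cells (330 to 398, in 72.8% of cells), at 66.8 CPM in pre-osteoblast-like cells (42.8 to 99.3, in 27.1% of cells) and at no more than 3.99 CPM in any other class. No *col5a2b* UMI was read in the endothelial-like or glia-like cells. The osteoblast-like level was 5.44 times the pre-osteoblast-like level (3.61 to 8.58).

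As a share of the α2 pair, *col5a2a* gave 26 UMIs against 443 in osteoblast-like cells, or 5.54% (3.65% to 8.02%). It gave 55.6% in pre-osteoblast-like cells (41.4% to 69.1%), and 98.6% or more in the 11 other classes with at least 10 UMIs of the pair. Relative to type I, type V was scarce in bone-forming cells: there were 0.648 type V UMIs per 100 type I UMIs in osteoblast-like cells (upper bound 0.699) and 2.07 in pre-osteoblast-like cells. Ligamentocyte-like cells had 4.75, dermal fibroblast-like cells 5.68, superficial chondrocyte-like cells 11.6 and the *glis1b* cluster 24.97. The α3 chain genes were rare, and *col5a3a* is taken up with the glia-like cells below. *col5a3b* was at 21.1 CPM in dermal fibroblast-like cells, its highest level.

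Of the FACIT collagens, type XII was highest in the dermal fibroblast-like class when whole classes are compared, followed by the ligamentocyte-like class. *col12a1a* was at 1200 CPM in dermal fibroblast-like cells (1142 to 1261), 558 in ligamentocyte-like, 407 in *fgl1*, 379 in *pck1*, 234 in *glis1b* and 145 in pre-osteoblast-like cells. The other classes lay between 0 and 127 CPM, with 2 UMIs in the endothelial-like reference. It was read in 94.7% of dermal fibroblast-like cells against 2 of 25 endothelial-like cells (medians of 4369 and 3490 UMIs), and in 62.6% after thinning to 1000 UMIs. *col12a1b* was at 437 CPM in dermal fibroblast-like, 261 in ligamentocyte-like and 240 in *fgl1* cells. Within the ligamentocyte-like class, 78 *thbs4a*-rich cells described below had 1192 CPM of *col12a1a* (1071 to 1323), level with the dermal fibroblast-like class. They had 618 CPM of *col12a1b* (532 to 714), above the 437 CPM of that class. The other 298 cells had 403 and 174 CPM, no higher than the *fgl1* cluster. Within the pair, *col12a1a* gave 73.3% of UMIs in dermal fibroblast-like cells (71.4% to 75.1%) and 94.5% in pre-osteoblast-like cells (84.9% to 98.9%), but 48.0% in *hspb1* (44.0% to 52.0%) and 28.7% in epithelial-like cells (23.5% to 34.4%). *col16a1* was highest in ligamentocyte-like cells at 190 CPM (169 to 214), above 103 in *fgl1* and 84.4 in dermal fibroblast-like cells, and was at 1.64 CPM in osteoblast-like cells.

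The type XIV pair stayed under the level set for naming and was picked out after its values were seen, because its genes split between classes. *col14a1a* was highest in ligamentocyte-like (35.8 CPM, 54 UMIs) and superficial chondrocyte-like cells (29.7 CPM, 12 UMIs). Of those 54 UMIs, 52 came from ligamentocyte-like cells outside the *thbs4a*-rich group. *col14a1b* was highest in osteoblast-like (45.1 CPM, 55 UMIs) and epithelial-like cells (28.7 CPM, 62 UMIs). *col14a1a* was 93.1% of the pair in ligamentocyte-like cells (83.3% to 98.1%), 3.51% in osteoblast-like cells (0.43% to 12.1%) and 0 of 62 UMIs in epithelial-like cells.

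**Figure D3:**
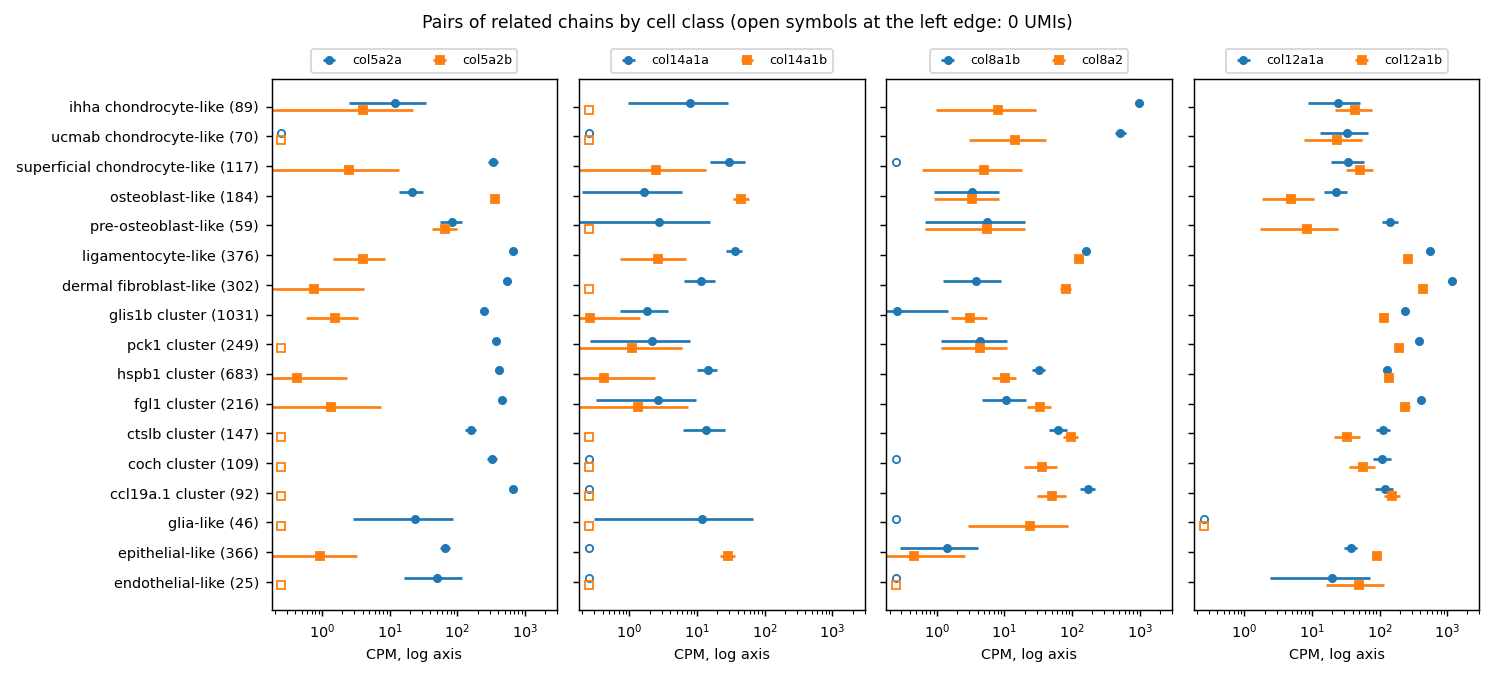
CPM (log axis) of 4 pairs of related chains in each cell class, with exact 95% Poisson intervals; open symbols at the left edge stand for 0 UMIs. *col5a2b* lies above *col5a2a* in the osteoblast-like row alone (363 against 21.3 CPM), *col14a1b* stands apart in the osteoblast-like and epithelial-like rows, and *col8a1b* reaches 978 CPM in the *ihha* row, where *col8a2* is at 7.98.

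Type VI, the pericellular filament collagen, had a different spread: its summed level was highest in dermal fibroblast-like (1835 CPM), superficial chondrocyte-like (1333) and *ccl19a.1* cells (1266), and was lower in pre-osteoblast-like (248) and osteoblast-like cells (94.2). The *ihha* (858) and *ucmab* (638) classes lay among the connective tissue clusters, and no type VI gene was raised in them. *col6a1*, *col6a2* and *col6a3* encode its 3 main chains. They stood at 695, 543 and 568 CPM in dermal fibroblast-like cells, 406, 507 and 420 in superficial chondrocyte-like cells, and 503, 362 and 390 in the *ccl19a.1* cluster. In *ihha* cells they were at 355, 311 and 192 CPM and in *ucmab* cells at 267, 290 and 80.9 CPM. Osteoblast-like cells had 34.4, 33.6 and 26.2 CPM, and endothelial-like cells gave 1 to 3 UMIs of each chain. *col6a1* and *col6a2* kept close to equal numbers, with *col6a1* at 44.4% to 59.6% of the pair over the 15 classes measured. *col6a3* was scarce beside *col6a1* in the deep cartilage classes, where *col6a1* gave 76.7% of the UMIs of both in *ucmab* cells (65.3% to 85.8%) and 65.0% in *ihha* cells (56.4% to 72.9%). Over all kept cells it gave 52.2%. *col6a4a* was highest in dermal fibroblast-like cells at 28.6 CPM.

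A type VIII gene was the most abundant member in both deep chondrocyte-like classes. *col8a1b* was at 978 CPM in *ihha* cells (859 to 1109, in 55.1% of cells) and at 519 CPM in *ucmab* cells (426 to 626, in 50.0% of cells). Without the 3 *trps1:eGFP* cells the *ihha* level was 881 CPM. The *ccl19a.1* (170 CPM) and ligamentocyte-like (160 CPM) classes followed, and *col8a1b* was at 0 UMIs in superficial chondrocyte-like, *coch*, glia-like and endothelial-like cells. *col8a2*, the gene for the other chain, had another pattern, with 125 CPM in ligamentocyte-like, 96.0 in *ctslb* and 80.7 in dermal fibroblast-like cells, but 7.98 in *ihha* and 14.3 in *ucmab* cells. *col8a1b* was 99.2% of their joint UMIs in *ihha* cells (97.1% to 99.9%), 56.2% in ligamentocyte-like cells and 4.46% in dermal fibroblast-like cells (1.47% to 10.1%). Its duplicate *col8a1a* gave 2 UMIs in all.

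Of the collagens of the dermal-epidermal junction, *col17a1b*, *col4a5* and *col4a6* were highest in epithelial-like cells and *col7a1* in dermal fibroblast-like cells. *col17a1b*, which encodes the hemidesmosome collagen, was at 2205 CPM in epithelial-like cells (2143 to 2269) and in 94.3% of them. The next class, *ctslb*, had 36.6 CPM in 13.6% of cells, which is 60.3-fold lower (40.5 to 94.2). *col17a1a* gave 10 UMIs there. *col7a1*, the anchoring fibril gene, was at 118 CPM in dermal fibroblast-like and 76.9 CPM in epithelial-like cells, and at 41.4 or less elsewhere. *col4a5* and *col4a6*, whose chains assemble together, were at 17.6 and 28.2 CPM in epithelial-like cells and at no more than 3.77 CPM in any other class. *col28a2a* was at 15.3 CPM in epithelial-like cells, with 33 of its 35 UMIs. Outside the epithelial-like cells *col17a1b* was at 0 to 36.6 CPM, and epithelial markers were read there too. The 7 markers sum to 257 to 6226 CPM in those classes against 55670 CPM in them, and their part in it was not tested.

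The main basement membrane chains were highest in the *ccl19a.1* cluster. *col4a1* was at 269 CPM there (217 to 328), at 166 CPM in glia-like (91.0 to 279), 99.9 in endothelial-like and 69.2 in superficial chondrocyte-like cells. *col4a2* was at 107 CPM in *ccl19a.1* (76.0 to 147), 107 in glia-like, 59.3 in superficial chondrocyte-like cells, with 3 UMIs in endothelial-like cells. The intervals of the *ccl19a.1* and glia-like classes overlap for both genes. *col4a1* made up 66.8% of the pair over all kept cells. In the RefSeq annotation of GRCz12tu the genes *col4a1* and *col4a2* are neighbours, as are *col4a3* with *col4a4* and *col4a5* with *col4a6*, and each of the measured pairs shared its leading class. *col15a1a*, a multiplexin gene, was at 210 CPM in endothelial-like cells (130 to 321, 21 UMIs) and 122 CPM in *ccl19a.1* cells (88.0 to 164), and their ratio of 1.73 has an interval that includes 1 (0.973 to 2.97). In the *ccl19a.1* cluster the 8 mural markers sum to 4980 CPM, mostly *rgs5b*, while 5 of the 7 endothelial markers were at 0 UMIs. The mural list summed to 226 (epithelial-like) to 3919 CPM (*pck1*) in the other classes, and no cluster was named mural. *col18a1a* was highest in the *ccl19a.1* cluster too, at 79.1 CPM.

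Glia-like cells had an own collagen makeup, which rests on 74 collagen UMIs and was picked out after the values were seen. Type IV made up 31.1% of them, type V 21.6%, type I 18.9% and the multiplexins 13.5%. *col5a3a* was at 119 CPM (57.0 to 219, 10 UMIs), above 48.1 in *ccl19a.1* and 33.2 in *coch* cells, and the related chain is known from Schwann cells of the rat. *col18a1b* gave 6 of its 17 UMIs in glia-like cells (71.3 CPM), *col28a1b* 5 of 29 (59.4 CPM) and *col15a1b* 4 of 61 (47.5 CPM). The *col15a1b* level did not set these cells apart. It was 38.1 CPM in *ucmab* cells, a ratio of 1.25 (0.275 to 4.66), and *ihha* cells gave 9 UMIs. The interval of the ratio to the next class also includes 1 for *col18a1b* (0.639 to 36.2, endothelial-like). It does not for *col28a1b* (1.13 to 26.5, *ccl19a.1*). Type XXVIII is known from peripheral nerve of the mouse. Within the 43 glia-like cells of the *sox10:DsRed* library alone, *col5a3a* kept all 10 UMIs and *col4a1* all 14.

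**Figure D4:**
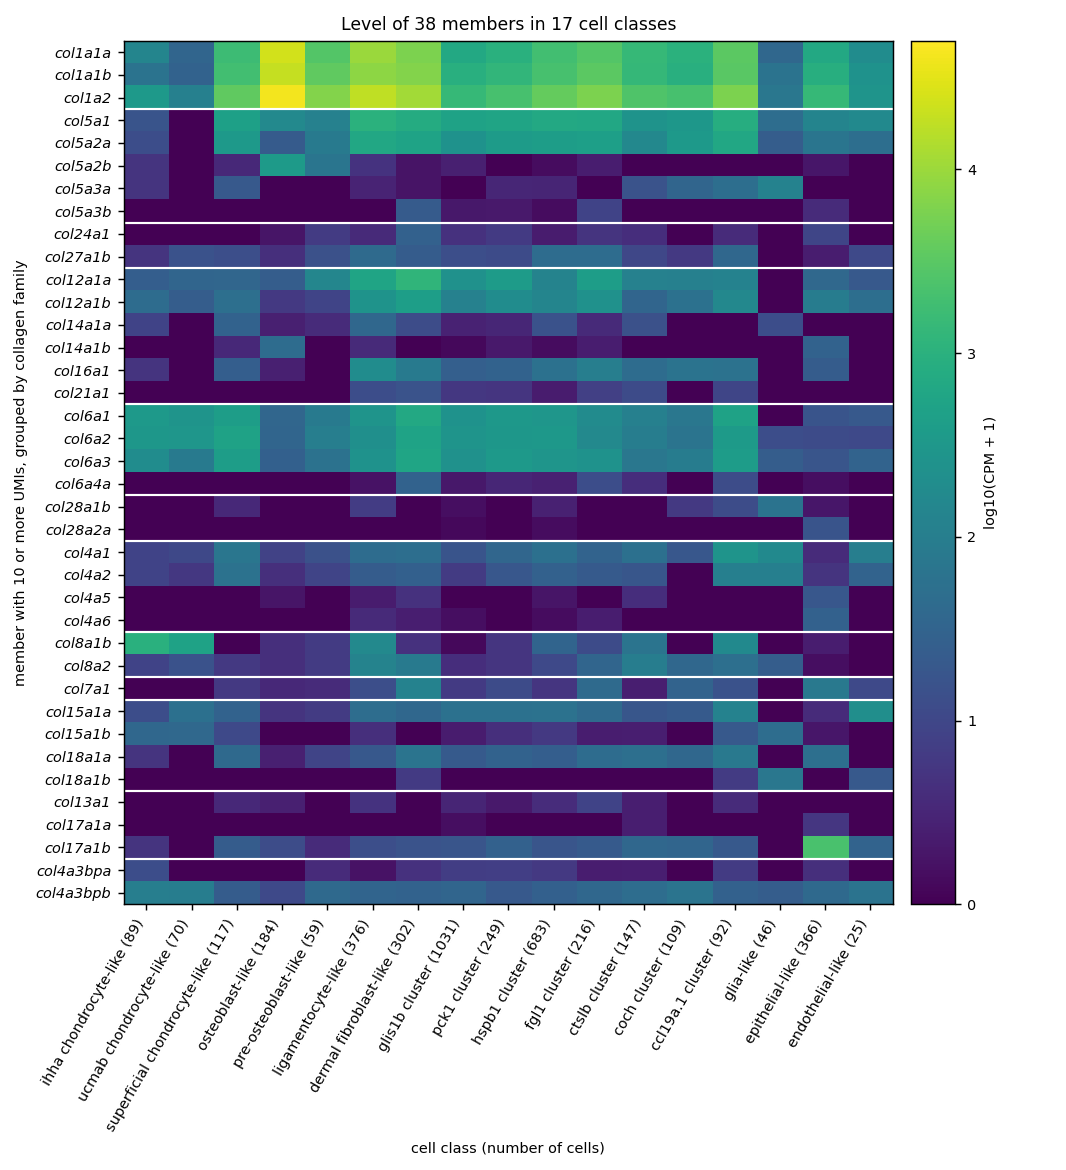
Level of the 38 members with at least 10 UMIs (rows, grouped by family between white lines) in the 17 cell classes (columns, with cell numbers), as log10 of CPM plus 1. The type I rows are brightest in the osteoblast-like column (24059, 19340 and 41063 CPM), *col5a2b* lights up there and faintly in the pre-osteoblast-like column, *col17a1b* in the epithelial-like column, and *col8a1b* in both deep chondrocyte-like columns.

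Counts over the members are given beside the share of all features. Of the 47 rows, 38 had at least 10 UMIs in the kept cells, 7 had 1 to 9 and 2 (*col28a1a* and *col4a3*) had 0, which allows up to 0.177 CPM. A member is called raised in a class where its CPM, with 10 CPM added, was at least 2-fold above that of all other kept cells and it had at least 10 UMIs in the class. By this rule 31 of the 38 were raised in at least 1 class, while 26.3% of all 15367 features with at least 10 UMIs were. Ligamentocyte-like and dermal fibroblast-like cells each had 10 raised members of 38, where 1.26% and 2.52% of all features were raised. The *ccl19a.1* cluster had 8 (1.67% of all features), epithelial-like cells 6 (4.8%) and osteoblast-like cells 5 (1.41%). Those 5 are the type I chains, *col5a2b* and *col14a1b*. Superficial chondrocyte-like cells had 3 raised members (4.53%), and there were 2 each in *ihha* (5.38%), *ucmab* (4.22%), glia-like (2.27%) and endothelial-like cells (2.9%). In the *ihha* and *ucmab* classes those 2 are *col8a1b* and *col4a3bpb*, the second of which is no collagen gene. The pre-osteoblast-like (1.93%), *hspb1* (0.429%), *ctslb* (1.41%) and *coch* (2.45%) classes had 1 each, and the *glis1b* (0.833%), *pck1* (2.08%) and *fgl1* (0.885%) clusters had 0. As 1 member is 2.63% of the 38 and 2 are 5.26%, counts of 1 or 2 say little about the members. Rare members such as *col28a2a* (33 of 35 UMIs in epithelial-like cells) reached 10 UMIs only through the class where they are raised.

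Members were also called lower in many classes. With 10 CPM added to both sides, a feature under 10 CPM in the other cells cannot be called 2-fold lower. The shares and medians therefore depend on how abundant the features are. Members and all features were not matched for abundance, and its part was not tested. At least 2-fold lower in osteoblast-like cells than in all other cells were 18 of the 38 members, beside 8.15% of all features, and the median log2 ratio of the members was -0.64 beside -0.19 over all features. Osteoblast-like cells were not alone in this. Glia-like cells also had 18 lower members (10.9% of all features), epithelial-like 17 (8.54%), *ihha* 16 (7.44%), endothelial-like 16 (11.2%), *ucmab* 14 (9.83%) and pre-osteoblast-like cells 13 (7.71%). The median of the members was -0.72 in glia-like, -0.64 in epithelial-like and -0.58 in *ihha* cells. The *coch* cluster had 12 lower members (4.95%), *ctslb* 11 (4.18%), superficial chondrocyte-like cells 9 (4.4%), *glis1b* 8 (2.71%), *pck1* 7 (3.19%) and *hspb1* 7 (2.17%). The fewest were in *fgl1* (3, 2.56%), *ccl19a.1* (3, 3.09%), dermal fibroblast-like (3, 2.61%) and ligamentocyte-like cells (2, 2.37%). The medians of members and of all features were 0.18 and -0.04 in ligamentocyte-like and 0.49 and 0.03 in dermal fibroblast-like cells.

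The most similar profiles belonged to members of 1 trimer, although not all chains of 1 collagen type were alike. Over the 17 classes, which share libraries and differ in depth, the log levels of *col1a1a* and *col1a2* correlated at r = 0.996, *col6a1* and *col6a2* at 0.975, *col5a1* and *col5a2a* at 0.951, and *col4a1* and *col4a2* at 0.926. These are descriptions. Outside a trimer, the closest pair was *col16a1* with *col5a2a* at 0.873. Far lower were *col8a1b* with *col8a2* at 0.318 and *col5a1* with *col5a2b* at -0.116.

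The ligamentocyte-like class was not uniform. Clustering at a resolution of 1.2, which was looked at after the data had been seen, set apart 78 cells rich in *thbs4a* (in 75.6% of cells, against 8.72% of the other 298). *scxa* was in 32.1% of the 78 cells against 4.03% of the others, and *tnmd* in 84.6% against 31.2%. Most cells of the class thus carried these naming markers less often, and levels given for the class cover both groups. Collagen made up 6.66% of the UMIs of the 78 cells and 3.30% of the others, at medians of 3430 and 3513 UMIs per cell. *col1a1a* was at 19077 CPM in the 78 cells against 7710, *col1a2* at 30618 against 14519, and *col1a1b* at 10748 against 7298. *col12a1a* (1192 against 403 CPM), *col12a1b* (618 against 174), *col15a1a* (105 against 33.0) and *col6a1* (463 against 229) were higher there as well. *col5a2a* was nearly level at 642 against 672 CPM, while *col14a1a* was lower at 6.75 against 42.9 CPM. *col5a1* was at 1594 CPM in the 78 cells against 877 in the others, and at that resolution its raised call was lost in the cluster that held most of the class (292 cells). The ratio of *col1a1a* to *col1a1b* was 1.78 in the 78 cells (1.70 to 1.85) and 1.06 in the other 298 (1.03 to 1.09).

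Osteoblast-like cells could be compared between the libraries, with 15 cells of the *sox10:DsRed* and 169 of the *trps1:eGFP* library. Collagen took 9.26% of UMIs in the first and 8.42% in the second, a ratio with an interval of 1.08 to 1.12, at medians of 9616 and 5184 UMIs per cell. *col1a1a* was at 26242 and 23743 CPM, *col1a1b* at 21799 and 18983, *col1a2* at 43915 and 40650, and *col5a2b* at 343 and 366 CPM. The type I chains were slightly higher in the *sox10:DsRed* cells. The *col5a2b* ratio of 0.938 has an interval that includes 1 (0.690 to 1.25). *col6a2* gave 0 UMIs in the 15 cells and 41 in the 169 cells (38.5 CPM). Of the 13 members with at least 10 UMIs, 6 were at least 2-fold lower in the *sox10:DsRed* cells, where 20.3% of all features were, and 0 were higher, where 5.24% were. All 6 had 0 or 1 UMI in the 15 cells and reached 10 UMIs only through the larger *trps1:eGFP* part. The limit on summed UMIs thus favours calls of lower, so this split is no result about the members. *col4a3bpb*, 1 of the 6, is no collagen gene.

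In pre-osteoblast-like cells the direction was the other way, with 0.857% collagen in 21 *sox10:DsRed* cells and 1.59% in 38 *trps1:eGFP* cells, a ratio of 0.538 (0.501 to 0.578). The medians were 4311 and 6754 UMIs per cell. *col1a2* was at 4004 and 7790 CPM, and *col5a1* gave 1 UMI against 41 (8.98 and 165 CPM). Of the 11 members, 3 were at least 2-fold lower in the *sox10:DsRed* cells (18.1% of all features) and 0 higher (12% of all features). Those 3 also reached 10 UMIs only through the *trps1:eGFP* cells, so the same limit holds. With 1 library per sort, the sort and the library cannot be told apart.

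**Figure D5:**
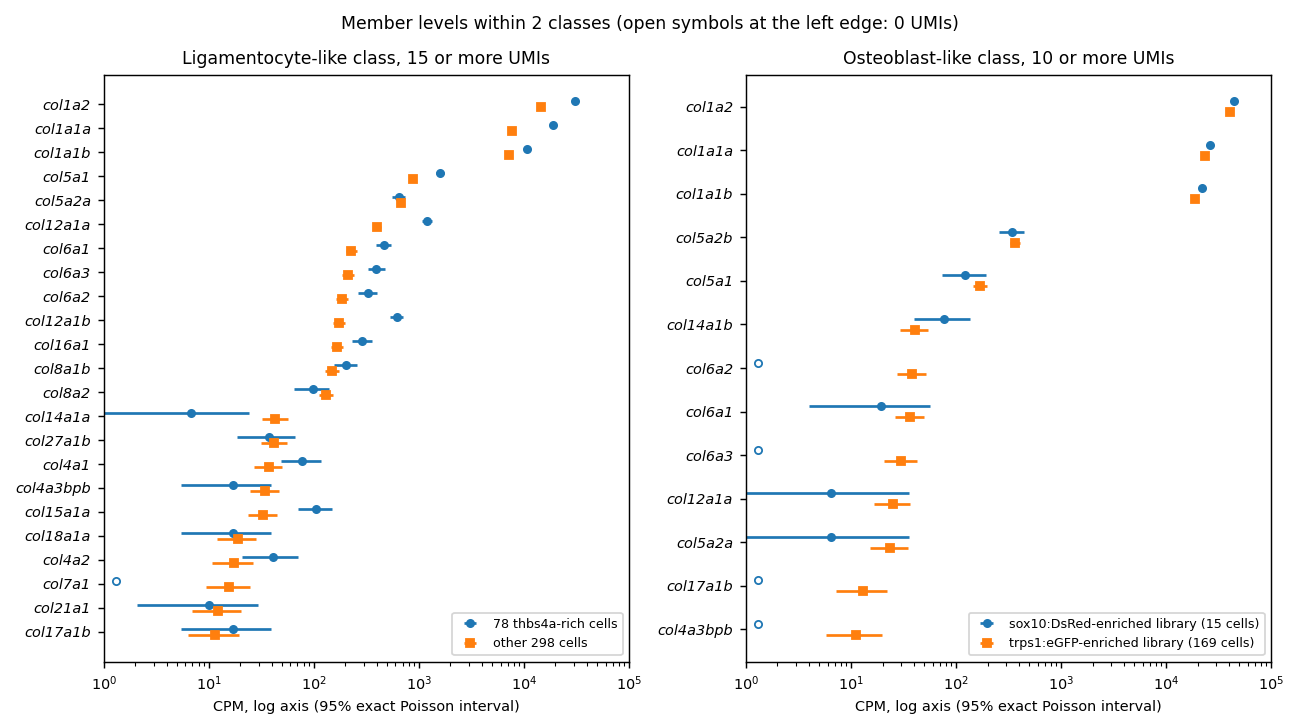
CPM (log axis, exact 95% Poisson intervals) of members within the ligamentocyte-like class (left, 78 *thbs4a*-rich cells against the other 298) and within the osteoblast-like class (right, 15 cells of the *sox10:DsRed*-enriched against 169 of the *trps1:eGFP*-enriched library); open symbols at the left edge stand for 0 UMIs. On the left the type I and type XII points of the 78 cells lie to the right of the others, and on the right the type I and *col5a2b* points nearly meet.

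Genes that fold, modify and crosslink collagen were described from a list of 47, of which 45 were in the files, all with at least 10 UMIs. Osteoblast-like cells had 8 of the 45 raised, beside 1.41% of all features: *sparc*, a collagen-binding matrix protein of bone (19109 CPM), *pcolceb*, an enhancer of the cleavage of the C-terminal propeptide (1109), *loxa* and *loxl4*, lysyl oxidases that crosslink chains (583 and 130), *kdelr3* (114), *p4ha1b*, a prolyl hydroxylase subunit (91.0), *plod2*, a lysyl hydroxylase (62.3), and *serpinh1a*, a collagen chaperone (41.8). The other chaperone gene, *serpinh1b*, was far more abundant but was highest in the *fgl1* cluster (1879 CPM), with 584 CPM in osteoblast-like cells. *pcolcea* was the reverse of *pcolceb*, with 71.3 CPM in osteoblast-like cells and 1300 CPM in the *ctslb* cluster. The deep chondrocyte-like classes, whose own fibrils are of the cartilage types left out here, had 12 (*ihha*, 5.38% of all features) and 8 (*ucmab*, 4.22%) raised, among them *plod2* (271 and 290 CPM). Ligamentocyte-like cells had 5 raised (1.26%) and dermal fibroblast-like cells 3 (2.52%). The median log2 ratio of the list was 0.30 in osteoblast-like, 0.47 in ligamentocyte-like and 0.35 in *ihha* cells, beside -0.19, -0.04 and -0.11 over all features. Over the 17 classes, the collagen share and the summed CPM of the list had r = 0.787 on log scales and a Spearman rho of 0.772. *sparc* gave most of the summed level in the classes richest in collagen (19109 of 24415 CPM in osteoblast-like and 11118 of 16288 CPM in ligamentocyte-like cells). Without it, a choice made after the data had been seen, r was 0.634 and rho 0.725. The collagen share and the median UMIs per cell had r = 0.641.

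The members not named by level were few in number of UMIs. *col27a1b* was spread widely and was highest in the *hspb1* cluster at 44.3 CPM, and *col24a1* was highest in dermal fibroblast-like cells at 27.9 CPM. *col21a1* (15.1 CPM, dermal fibroblast-like) and *col13a1* (8.01 CPM, *fgl1*) were raised in no class. *col4a3bpb* reached 99.8 CPM in *ihha* cells. Under 10 UMIs in all were *col28a2b* (8), *col19a1* (3), the *col27a1a* rows (3 and 1), *col7a1l* (2), *col8a1a* (2) and *col4a4* (1), for which no class could be given.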

How the data were processed

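Single cells of 2 sorted populations were profiled with the 10X Chromium 3′ kit, and per the labels' processing notes and the study's methods the authors used Cell Ranger 3.0.0 and the GRCz11 genome, with an extended annotation to which the reporter sequences had been added. The deposited matrices hold raw UMI counts per gene and barcode. Barcodes with 500 to 2000 genes and up to 5% of UMIs on 12 mitochondrial features were kept. Seurat 5.3.0 (R 4.3.3) log-normalized the counts. All 25 collagens among the 2000 variable features were left out, mitochondrial share was regressed, and 38 of 50 components entered Louvain clustering at a resolution of 0.9. Clusters holding *bglap* and *ifitm5*, and *mia* and *matn1*, were subclustered at 0.2 and 0.5. Epithelial-like and endothelial-like clusters were set apart and kept as classes. A cluster was named where at least 3 markers of a type, none a collagen, were in at least 5% of cells and 2-fold higher than in all others. The upper limit on genes was the only guard against doublets.

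CPM, shares and exact intervals (Poisson, Clopper-Pearson, 95%) were computed from summed counts with scipy 1.17.1. The fold and the raised call were tested on simulated data, while the shares and intervals were not. Members with at least 100 CPM in a class of at least 30 cells, or 4-fold above every other class with at least 20 UMIs, are given by class, with paired genes and chains of 1 trimer beside them. The alternatives changed clustering, filters, features, library, depth, pseudocount and UMI minimum. The members, lists and naming limits were chosen with earlier results of these data known. RefSeq names (GRCz12tu) matched 45 of 46 symbols. The features and barcodes carry no measurement. Imaging was not analysed here.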

Additional observations from a re-analysis of the deposited data

How the results depend on the processing

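The collagen share of osteoblast-like cells, 8.52% in the main setting, was 8.46% with 20 dimensions, 8.44% with a minimum of 200 genes, 6.18% with a maximum of 1500 genes, 8.35% with collagens kept among the variable features, 8.42% and 9.26% in the *trps1:eGFP* and the *sox10:DsRed* library alone, and 7.71% as a mean over cells. Osteoblast-like, ligamentocyte-like and dermal fibroblast-like cells stayed the top 3 classes, in this order, under all of these but the *sox10:DsRed* library alone, which held neither of the last 2. The osteoblast-like share was 1.56 to 2.55 times that of the cluster matched to the ligamentocyte-like class. The upper value, at a resolution of 1.2, is against the 292 cells left without the 78 *thbs4a*-rich cells. Those 78 cells formed a cluster of their own with 6.66% collagen, which is in neither this range nor the order of the top 3. Type I was 98.9% of osteoblast-like UMIs on the 45 collagen rows with a maximum of 1500 genes. It was 99.4% in the *sox10:DsRed* library (99.1% in the main setting), and *col1a2* was 47.8% of type I in that library (48.6%). That library also had 19 members with at least 10 UMIs (38) and 14 raised members (31). The share of all features raised in that library alone was not computed, so the second count is no result about the members. The ratio of the libraries' osteoblast-like shares was 1.13 with collagens kept, and *col12a1a* was in 62.6% of dermal fibroblast-like cells after thinning and 80.5% with at least 2 UMIs (94.7%). The log2 ratio of *col1a1a* to *col1a1b* in superficial chondrocyte-like cells turned from -0.21 to 0.0573 with a minimum of 200 genes. The log2 ratios of the 23 named members, each in its highest class, were above 0 in all 230 values. They were at 1 or more in 229, the exception being *col5a1* at a resolution of 1.2. As the classes were picked by these same levels, values above 0 were likely in advance and are no check of the patterns. The setting without a minimum of UMIs cannot change these ratios. With 20 dimensions the glia-like cluster had 68 cells (46) and a share of 0.487% (0.088%). The causes were not tested. In 4 cases a class had no matching cluster: *pck1* (resolution 0.6), *ccl19a.1* (20 dimensions), glia-like (200 genes) and pre-osteoblast-like (1500 genes). In the last case the cluster of 204 cells matched to the osteoblast-like class was also the closest to the pre-osteoblast-like class. The values given for osteoblast-like cells with a maximum of 1500 genes, such as 6.18%, thus cover cells of both classes.

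No paired analysis was possible because each sort is 1 library. Fewer than 10 of the 47 members reached 10 UMIs in the *ihha* (9), *ucmab* (7), endothelial-like (6) and glia-like (2) classes, so values of single members are imprecise there.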
